A study of Mus musculus with 86 samples.

Results

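Heat shock proteins and their co-chaperones were followed through 2 hindlimb muscles of the mouse. Genes were taken by symbol, from the Hspa (Hsp70), Hspb (small heat shock protein), Hsp90, Hsph1, Hspd1, Hspe1, or Dnaja, Dnajb and Dnajc (J-domain) families. They had a mean of at least 1 CPM over all 86 libraries. CPM are counts scaled to the total of the library. That total is as deposited for this limit and the levels set against it, and adjusted in the rest of the text. Of 42807 genes listed, 70 carried such a symbol and 63 reached that level. These were 13 of 13 Hspa genes, 7 of 8 Hspb genes, 4 of 4 of the group Hsp90aa1, Hsp90ab1, Hsp90b1 and Hsph1, both Hspd1 and Hspe1, 4 of 4 Dnaja genes, 9 of 13 Dnajb genes and 24 of 26 Dnajc genes. The genes below the limit were Dnajb3, Dnajb7, Dnajb8, Dnajb13, Dnajc6, Dnajc22 and Hspb9. The members nearest the limit were Hspa14, at a mean of 1.07 CPM, and Hspb11, at 1.95 CPM, and the nearest gene left out was Dnajb3, at 0.146 CPM. All 63 members passed the low-count filter of every fit.

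Chaperones hold unfolded proteins and help them to fold. Hsp70 proteins bind short stretches of a client and release them with each round of ATP use, J-domain proteins deliver clients and start that ATP use, and Hsp90 proteins act later, on clients such as the glucocorticoid receptor. Small heat shock proteins keep damaged proteins from clumping without using ATP, and several of them sit on the contractile and cytoskeletal filaments of muscle. The endoplasmic reticulum and the mitochondrion each have their own sets of Hsp70, Hsp90 or Hsp60 proteins and partners. Heat, exercise and protein damage raise the cytosolic stress-inducible genes through heat shock factors, and misfolding in the endoplasmic reticulum raises the set of that organelle.

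The muscles were the gastrocnemius, which in the mouse is mostly of fast fibres, and the soleus, which is rich in slow, oxidative fibres. Male C57BL/6N mice 10 weeks old at supply received an intraperitoneal injection every day for 10 days. Non-treated mice (NT, n = 5 libraries per muscle) were injected with phosphate-buffered saline (PBS) and gavaged with PBS. All other groups were injected with 25 mg/kg of dexamethasone, a synthetic glucocorticoid that wastes muscle. The DEX group (n = 4 per muscle) was then gavaged with PBS. The 6 extract groups were gavaged with Jakyak-gamcho-tang, a mixture of Paeoniae radix and Glycyrrhizae radix, in which JGT02 held more of the first, JGT03 equal parts and JGT04 more of the second, at 100 or 400 mg/kg (n = 5 per muscle, and n = 4 for JGT04 at 400 mg/kg). The resveratrol group (RSV, n = 5 per muscle) received 200 mg/kg of that polyphenol. Extracts and resveratrol were suspended in carboxymethylcellulose, which NT and DEX mice did not get, so a treatment and its vehicle cannot be told apart. Mouse numbers are those of the labels.

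Libraries held 18.8 to 34.6 M (mega counts) of estimated counts. The labelled muscle fitted its markers in NT mice, where 8 of 8 slow-fibre genes were higher and 8 of 8 fast-fibre genes lower in the soleus. Of the 86 libraries, 3 stood apart. Gastrocnemius JGT02 100 mg/kg mouse 1 and soleus JGT02 100 mg/kg mouse 5 held summed regenerating-fibre markers of 2691 and 2398 CPM, where the gastrocnemius and soleus NT libraries lay at 26.5 to 40.4 and 81.1 to 113 CPM. Their summed macrophage markers were 2478 and 2974 CPM. The library labelled soleus JGT02 400 mg/kg mouse 1 went against its label, with 579 CPM of summed slow-fibre markers and 113600 CPM of fast-fibre markers, where soleus NT libraries had at least 25270 CPM and at most 30880 CPM of them. Counts of members called are given with all 86 libraries and, for each comparison, again without these 3. Since 1 model of the spread serves all groups of a muscle, these libraries bear also on comparisons that do not hold them. A gene is said to have risen or fallen, or to have been called, where edgeR's quasi-likelihood test gave a Benjamini-Hochberg adjusted p under 0.05 over all genes tested. All p-values below are such adjusted values unless said otherwise, log2 fold changes are given ± SE, and CPM ± SD.

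In muscle of NT mice the chaperone transcripts were dominated by few genes. Per kilobase of exon, the highest levels in the gastrocnemius were those of Hspb6 (373 CPM per kb), Hsp90ab1 (369), Hspa8 (the third highest), Hspb8 (177) and Hspb1 (105). In the soleus they were those of Hspb6 (1269 CPM per kb), Hspb7 (965), Hsp90ab1 (393), Hspa8 (311) and Hspb1 (268). Hsp90ab1 and Hspa8 are the constitutive cytosolic Hsp90 and Hsp70, while Hspb6, Hspb7 and Hspb8 are small heat shock proteins of muscle and heart. Hspa14, a ribosome-linked Hsp70, was lowest in both muscles. In the gastrocnemius Hspb6 and Hsp90ab1 were level within their spread.

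In NT mice 31 of 63 members were higher and 12 lower in the soleus, where 22.4% and 23.4% of all 15327 genes tested were higher and lower. The median member was 0.21 higher on the log2 scale, and the median of all genes was 0.00. Without the 3 libraries, 34 members were higher and 15 lower, against backgrounds of 29.3% and 28.8%. The Hsp70 and small heat shock families gave many of the higher genes, with 10 of 13 Hspa and 5 of 7 Hspb genes higher and 1 lower in each. Of the 24 Dnajc genes, 9 were higher and 6 lower. Values in this comparison were scaled over both muscles together, and its libraries were taken as independent. The labels do not say whether a mouse number shared by both muscles is the same animal. If it is, these libraries are not independent.

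Hspb7, a small heat shock protein found with sarcomeric filaments (chr4:141420779-141425311 on GRCm38, plus strand), had the widest gap. Its 5 gastrocnemius libraries of NT mice lay between 155 and 294 CPM and its 5 soleus libraries between 2004 and 2988 CPM, so the groups were far apart (3.45 ± 0.30, adjusted p = 1.17e-15). Hspb6, or Hsp20 (chr7:30552178-30555443), lay at 734 to 974 CPM in the gastrocnemius and at 2400 to 3280 CPM in the soleus (1.76 ± 0.30, adjusted p = 7.21e-07). Neither gene's groups overlapped. Among the other small heat shock genes, Hspb1 (Hsp25) was higher by 1.35 ± 0.31 (adjusted p = 0.000163), Hspb2 by 0.76 ± 0.13 and Hspb3 by 0.51 ± 0.12. Hspb2 overlaps exons of Cryab on the opposite strand, and Cryab, an alpha-crystallin, was itself higher by 2.20 ± 0.28. Exons of 22 of the 63 members overlap a gene on the other strand, among them Hspb6 (Lin37 and Proser3) and Dnaja3 (Coro7). The libraries were strand-specific, but how RSEM was set for strand is not given in the sources used here, so reads of these genes may be shared. Hspb8, which works with Bag3 in the clearance of damaged filament proteins, went the other way, at 346 ± 14.7 CPM in the gastrocnemius and 249 ± 34.0 CPM in the soleus (-0.47 ± 0.14, adjusted p = 0.00389).

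Inducible and testis-enriched Hsp70 genes were also higher in the soleus. Hspa1a and Hspa1b, the near-identical stress-inducible Hsp70 genes, were at 6.74 ± 1.70 and 4.42 ± 1.66 CPM in the gastrocnemius and at 45.3 ± 13.3 and 26.0 ± 9.95 CPM in the soleus (2.75 ± 0.51 and 2.55 ± 0.57, adjusted p = 5.25e-06 and 0.000153). Short sequence words were compared between the exons of all genes, and 65.4% of those of Hspa1a and 68.0% of those of Hspa1b occur elsewhere, almost all in each other, so counts can have been split between them. Hspa2 was at 4.78 ± 0.804 and 15.7 ± 1.39 CPM (1.71 ± 0.14, adjusted p = 1.51e-16) and Hspa1l was higher by 1.42 ± 0.27. Of the words of Hspa1l 14.6% are shared with Hspa1a, and its exons overlap Gm10501 on the other strand, so its counts can hold reads of these genes. The J-domain genes Dnaja4 and Dnajb4, cytosolic partners of Hsp70, were higher by 1.67 ± 0.24 and 1.47 ± 0.17, without overlap of the groups. Dnajb1 and Hsp90aa1, which belong to the heat-inducible set, were higher by 0.70 ± 0.20 and 0.75 ± 0.23. The mitochondrial Hsp70 Hspa9 was at 399 ± 13.6 CPM in the gastrocnemius and 575 ± 15.8 CPM in the soleus (0.53 ± 0.11, adjusted p = 9.04e-05).

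Among the genes lower in the soleus the largest gap was that of Dnajb12, a J-domain protein of the endoplasmic reticulum membrane, at 77.4 ± 3.58 CPM in the gastrocnemius and 43.8 ± 2.95 CPM in the soleus (-0.82 ± 0.13, adjusted p = 3.5e-07). Dnajc12 (-0.61 ± 0.17), Dnajb5 (-0.49 ± 0.18), Dnajc18 (-0.49 ± 0.07), Dnajc13 (-0.47 ± 0.06), Hsph1 (-0.42 ± 0.11) and Hspa13 (-0.38 ± 0.12) followed. Hsph1 is a nucleotide exchange factor for Hsp70, and Dnajc13 works in endosomal sorting. The values of Dnaja2, Dnajc16, Dnajc10 and Dnajc3 were -0.37, -0.37, -0.31 and -0.30. None of these groups overlapped. The 2 muscles of NT mice lie in different runs of the series' listed order, which are described with the treatments, and with a term for those runs 18 members were higher and 3 lower, against 9.66% and 13% of all genes. All 21 are among the 43 called without the term. A single group spans these 2 runs, gastrocnemius JGT04 100 mg/kg, with 3 libraries in the gastrocnemius NT run and 2 in the soleus NT run. The term rests on that group alone, so it cannot tell muscle and run apart, and the changes that follow are a description. Of the 12 lower genes Dnajb12, Dnajc18 and Dnajc13 kept their calls. The term ended those of Hspb8 (adjusted p = 0.245), Dnajc12 (0.181), Dnajb5 (0.327), Hsph1 (0.103), Hspa13 (0.563), Dnaja2 (0.0836), Dnajc16 (0.123), Dnajc10 (0.229) and Dnajc3 (0.325), and brought Hspa13 from -0.38 to -0.20, Dnajc10 from -0.31 to -0.20 and Dnajc3 from -0.30 to -0.18. Among the higher genes named above it ended the calls of Hspb1 (adjusted p = 0.113), Dnajb1 (0.245) and Hsp90aa1 (0.1). Of other marker lists, 5 of 5 erythroid and 5 of 12 immediate early genes were higher in the soleus and 2 of 7 Schwann cell genes lower, and their part was not tested.

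**Figure D1:**
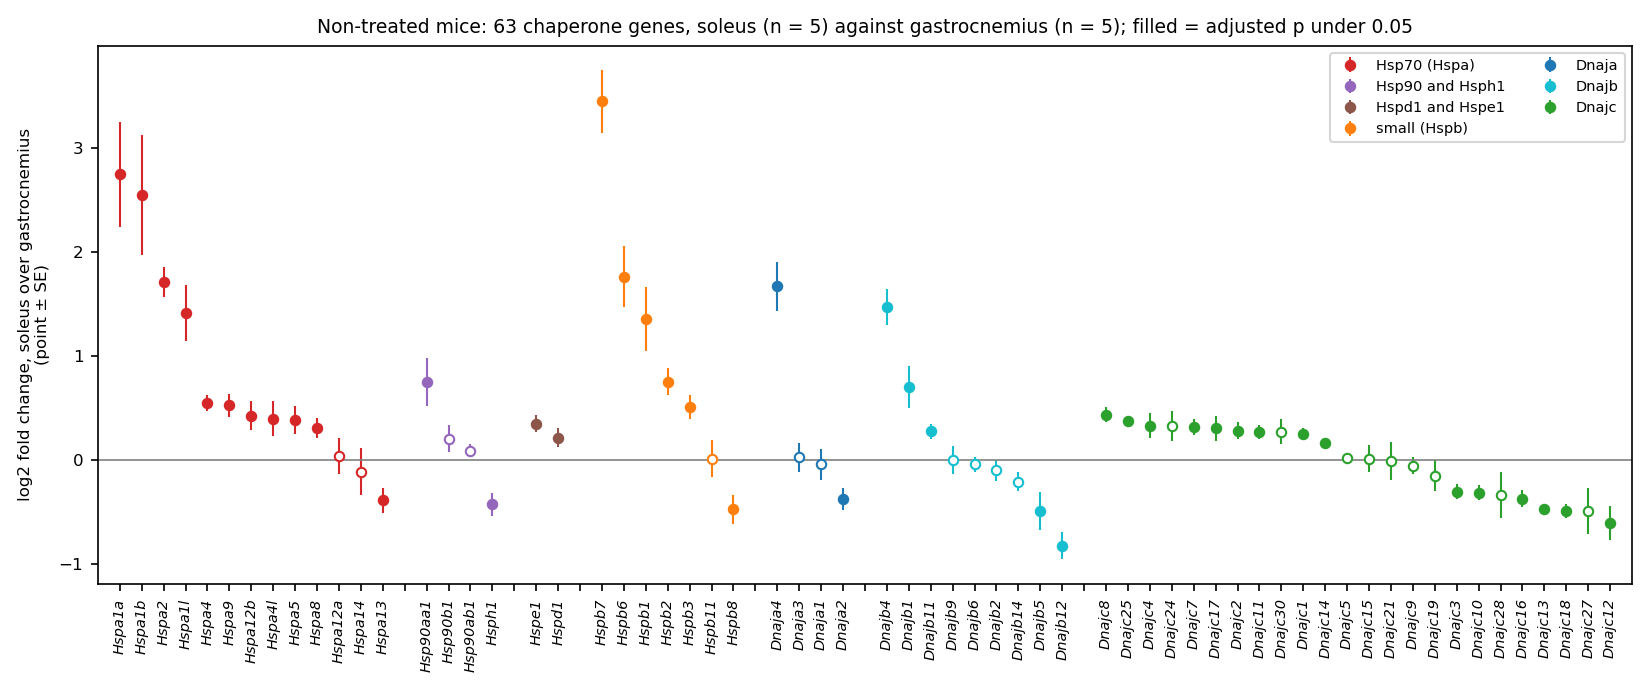
Each point is 1 of the 63 members, with its log2 fold change of soleus over gastrocnemius in NT mice (n = 5 and 5) ± SE on the vertical axis, coloured by family; filled points have an adjusted p under 0.05. Hspb7, Hspa1a and Hspa1b stand highest, above 2.5, and Dnajb12 lowest, at -0.82.

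The DEX group against NT asks what the glucocorticoid did to muscle. In the gastrocnemius few members passed with all 86 libraries in the fit. More members, and a larger share of all genes, passed without the 3 libraries that stand apart. Of the 63 members 6 rose and none fell, where 4.31% of the 14484 genes tested rose and 4.07% fell, and 16 members had an unadjusted p under 0.05. DESeq2 called 8 members, all higher. The shares of all genes with such a p or called by DESeq2 are not given here, so the 16 and the 8 cannot be set against them. The median member changed by 0.06 and the median gene by -0.01. Of the 6, 5 were J-domain genes of class C: Dnajc25, Dnajc5, Dnajc2, Dnajc3 and Dnajc13. The sixth was Hspa4, a nucleotide exchange factor for Hsp70.

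Dnajc25, a membrane J-domain protein (chr4:58995062-59025573), was at 10.4, 10.4, 10.4, 11.1 and 10.1 CPM in the NT mice and at 12.9, 12.8, 12.2 and 14.5 CPM in the DEX mice. All 4 DEX libraries lay above all NT libraries (0.33 ± 0.06, adjusted p = 0.000222). Of its words 9.58% are found elsewhere, mostly in Gm20503. Dnajc5, the cysteine string protein that guards vesicle fusion at nerve endings (chr2:181520485-181555133), was at 55.5, 50.5, 53.8, 51.9 and 52.1 CPM in NT and between 62.9 and 66.4 CPM in all 4 DEX libraries. These too did not overlap (0.28 ± 0.06, adjusted p = 0.000907).

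Dnajc2, which sits on the ribosome with Hspa14, rose by 0.28 ± 0.06 (adjusted p = 0.00249) with overlapping groups. Dnajc3, an endoplasmic reticulum co-chaperone, went from 38.9 ± 2.08 to 46.4 ± 1.55 CPM (0.25 ± 0.06, adjusted p = 0.00756), Hspa4 from 87.2 ± 2.83 to 99.9 ± 5.09 CPM (0.20 ± 0.05, adjusted p = 0.00967) and Dnajc13 from 33.2 ± 0.789 to 37.7 ± 2.18 CPM (0.18 ± 0.05, adjusted p = 0.0131). The groups of these 3 genes were apart. The call was lost when 1 library was left out for Hspa4 and for Dnajc13 (1 of 9 omissions each), and for none of the other 4 genes.

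Genes that missed the threshold in the gastrocnemius included abundant ones. Hspa8 (chr9:40800984-40810087) was at 1052, 1043, 1098, 1077 and 1031 CPM in NT and at 824, 838, 918 and 1073 CPM in DEX libraries, with 1 DEX library among the NT values (-0.21 ± 0.10, adjusted p = 0.199). Hspa9 was at 382 to 411 CPM in NT and 327 to 356 CPM in DEX libraries, without overlap (-0.19 ± 0.07, adjusted p = 0.0944). The abundant J-domain and Hsp90 genes Dnaja2 (0.04 ± 0.11) and Hsp90ab1 (0.12 ± 0.05, adjusted p = 0.191), and the small heat shock genes Hspb6 (0.15 ± 0.16) and Hspb7 (0.25 ± 0.19) had overlapping groups. Hsp90b1 (0.17 ± 0.17), Hspd1 (0.14 ± 0.05), Hspe1 (0.06 ± 0.09), Dnaja4 (0.13 ± 0.11), Dnajb5 (-0.25 ± 0.17), Dnajb6 (-0.07 ± 0.06), Dnajc7 (-0.09 ± 0.06) and Dnajc21 (0.31 ± 0.17) did not pass either. Without the 3 libraries 17 members rose and 5 fell, against 13.2% and 13.2% of all genes. Then Hspa8 (-0.21, adjusted p = 0.0311) and Hspa9 (-0.19, adjusted p = 0.0003) were among those that fell, and Dnajb11, Dnajb12, Hspa5 and Hsp90b1 of the endoplasmic reticulum among those that rose. Hspa8 lay below every NT library in 36 of all 38 gastrocnemius libraries of mice given dexamethasone, and Dnajc5 lay above every NT library in 38 of 38.

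In the soleus dexamethasone moved members in both directions. Of 63, 10 rose and 9 fell, where 11.3% and 9.47% of the 14811 genes tested rose and fell. The median member changed by -0.00 and the median gene by 0.05. With the 3 libraries left out 16 rose and 19 fell, against 24% and 19.2%. The members were placed in the cell after their values had been seen, so the counts that follow are a description. Of 11 members of the endoplasmic reticulum 4 rose and 1 fell, of 8 mitochondrial members 3 fell and none rose, and of 7 cytosolic stress-inducible members 4 rose and none fell. A change in bulk muscle can come from fewer cells of a type or from less RNA per cell, and these cannot be told apart.

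The endoplasmic reticulum genes that rose were Hspa5, Hsp90b1, Dnajc3 and Dnajb11. Hspa5 (BiP, the Hsp70 of that organelle; chr2:34771970-34777547) was at 167, 186, 181, 119 and 214 CPM in NT and at 254, 255, 222 and 360 CPM in DEX libraries (0.65 ± 0.15, adjusted p = 0.00303). Hsp90b1 (Grp94, its Hsp90; chr10:86690209-86705509, minus strand) was at 97.4, 112, 114, 101 and 123 CPM in NT and at 149, 136, 139 and 185 CPM in DEX libraries (0.48 ± 0.12, adjusted p = 0.00445). In both genes all DEX libraries were above all NT libraries, with DEX mouse 4 highest.

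Dnajc3 (P58IPK, a partner of BiP; chr14:118937976-118981697) was at 30.5 to 34.7 CPM in the 5 NT and at 41.8, 42.0, 42.0 and 46.9 CPM in the DEX libraries (0.39 ± 0.09, adjusted p = 0.00254). Dnajb11 (ERdj3, another partner) was at 36.6 to 41.4 CPM in NT and 44.0 to 53.5 CPM in DEX libraries (0.30 ± 0.07, adjusted p = 0.00295). Neither gene's groups overlapped, and all 4 genes kept the call in each of 9 omissions of 1 library. Without the 3 libraries and DEX mouse 4 the changes of Hspa5, Hsp90b1, Dnajc3 and Dnajb11 were 0.49, 0.37, 0.35 and 0.24 (adjusted p = 0.00722, 0.0014, 8.17e-05 and 0.000917).

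Of these 4 promoters, 3 carry the letters of the endoplasmic reticulum stress element. The element was searched as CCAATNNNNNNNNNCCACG on both strands, from 250 bases before to 50 bases after the RefSeq start site (GRCm38.p6), and was found in 3 of the 51 members that had a window (5.88%) and in 37 of 27025 genes (0.137%). The 3 members were Hspa5, Hsp90b1 (at 2 places) and Dnajc3, and they are shown because all 3 rose together. Each line gives 20 bases on either side of the match, 5′ to 3′ on the gene's strand, with the match in capitals. They lie at chr2:34772005-34772063 (plus strand), chr10:86705618-86705676 and chr10:86705513-86705571 (minus strand) and chr14:118937807-118937865 (plus strand). The matches start 65, 212, 107 and 105 bases before the start site, the third one on the other strand. RefSeq and GENCODE starts can differ, as for Hspa5, whose GENCODE gene begins before this stretch.
Hspa5: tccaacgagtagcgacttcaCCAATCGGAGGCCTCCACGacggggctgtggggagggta
Hsp90b1, upstream match: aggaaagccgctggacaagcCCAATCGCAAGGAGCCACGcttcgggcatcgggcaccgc
Hsp90b1, downstream match: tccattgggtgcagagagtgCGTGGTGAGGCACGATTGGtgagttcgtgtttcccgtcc
Dnajc3: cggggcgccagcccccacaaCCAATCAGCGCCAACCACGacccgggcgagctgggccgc
A match of letters is a description of the promoter and not a bound site. Dnajb11 had a window without these letters. The palindrome core of the glucocorticoid response element, searched as ACANNNTGT on both strands, was found in 2 of 51 members (3.92%) and in 7.9% of all genes.

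Other endoplasmic reticulum members did not rise. Dnajc16, a membrane J-domain protein (chr4:141760189-141790931, minus strand), was at 16.6, 17.4, 15.5, 17.3 and 16.4 CPM in NT and at 11.3, 11.4, 10.5 and 11.2 CPM in DEX libraries. The groups were far apart for their spread (-0.59 ± 0.11, adjusted p = 0.000373), and the call held in each of 9 omissions of 1 library. Dnajb12 was at 42.1 to 49.9 CPM in NT and 31.6 to 39.5 CPM in DEX libraries and missed the threshold (-0.37 ± 0.14, adjusted p = 0.0653).

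Of the mitochondrial members Hspa9, Dnaja3 and Dnajc11 fell in the soleus. Hspa9 (mortalin, which pulls proteins through the inner membrane) was at 594, 580, 566, 609 and 594 CPM in NT and at 452, 449, 411 and 401 CPM in DEX libraries (-0.46 ± 0.15, adjusted p = 0.0282). Its J-domain partner Dnaja3 (chr16:4639989-4707695) was at 103, 98.6, 95.6, 97.1 and 103 CPM in NT and at 75.9, 64.9, 69.2 and 53.9 CPM in DEX libraries (-0.59 ± 0.16, adjusted p = 0.0104). All DEX libraries of both genes lay below all NT libraries. Dnajc11, of the inner membrane organising complex, fell by 0.26 ± 0.08 (adjusted p = 0.0223). Their calls were lost in 2, 1 and 2 of 9 omissions of 1 library, and without the 3 libraries Hspa9 and Dnaja3 had adjusted p = 1.14e-06 and 1.05e-06. The matrix chaperonin genes Hspd1 (Hsp60) and Hspe1 (Hsp10) did not pass, at -0.18 ± 0.12 and 0.13 ± 0.09. Those 2 genes lie head to head on chr1 and overlap on opposite strands, as Dnaja3 and Coro7 do on chr16, so their reads can be told apart only where strand was used.

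Further members that fell were Dnajc28 (-0.81 ± 0.25, adjusted p = 0.0217), Hspa2 (-0.44 ± 0.14, adjusted p = 0.0232), Dnajb6 (-0.31 ± 0.09, adjusted p = 0.0108), Dnajc9 (-0.29 ± 0.09, adjusted p = 0.0207) and Dnajc14 (-0.18 ± 0.07, adjusted p = 0.048). Dnajb6 guards muscle against protein aggregates, and inherited changes in it cause a limb-girdle dystrophy. It was at 118, 117, 113, 120 and 118 CPM in NT and at 101, 106, 91.6 and 81.8 CPM in DEX libraries, without overlap. Dnajc9 is a histone chaperone, and its call was lost without the 3 libraries and DEX mouse 4 (-0.20, adjusted p = 0.0596).

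Of the cytosolic stress-inducible genes Hspb1, Hsp90aa1, Dnajb1 and Dnaja1 rose in the soleus, unevenly over the DEX mice. Hspb1 (chr5:135887919-135889563) was at 240, 353, 360, 195 and 267 CPM in NT and at 615, 271, 291 and 2022 CPM in DEX libraries. DEX mice 1 and 4 were above every NT library and mice 2 and 3 were among them (1.50 ± 0.34, adjusted p = 0.00256). Without DEX mouse 4 and the 3 libraries the change was 0.48 (adjusted p = 0.0751), so this call rests on that library. Of the words of Hspb1 52.3% are shared with the pseudogene Hsp25-ps1.

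Hsp90aa1, the inducible cytosolic Hsp90 (chr12:110690605-110702728, minus strand), was at 71.1, 92.5, 87.9, 62.7 and 92.1 CPM in NT and at 119, 93.1, 121 and 260 CPM in DEX libraries. Each DEX library was above each NT library, by a narrow margin for mouse 2 (0.86 ± 0.20, adjusted p = 0.00317), and the rise remained without DEX mouse 4 and the 3 libraries (0.45, adjusted p = 0.00184). It shares 51.4% of its words with other genes, most with Gm12346. Dnajb1 (Hsp40), the main heat-inducible J-domain gene, was at 6.92, 8.01, 15.4 and 17.2 CPM in DEX and at 6.44 to 9.14 CPM in NT libraries (0.66 ± 0.19, adjusted p = 0.0136). Dnaja1 rose by 0.37 ± 0.14 (adjusted p = 0.0495), Hspa14 by 0.64 ± 0.23 (adjusted p = 0.0456) and the vascular Hsp70 relative Hspa12b by 0.48 ± 0.17 (adjusted p = 0.0472). Dnajb1 and Hspa12b overlapped between groups, and Dnaja1, Hspa14 and Hspa12b kept their calls in 2, 2 and 3 of 9 omissions. Hspa1b was at 9.55 to 35.8 CPM in NT and at 22.1 to 63.4 CPM in DEX libraries and did not pass (0.82 ± 0.41, adjusted p = 0.142).

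Of the most abundant soleus genes, Hspb6 (-0.29 ± 0.39), Hspb7 (-0.14 ± 0.36), Hsp90ab1 (-0.11 ± 0.09), Hspa8 (0.11 ± 0.12), Dnaja4 (0.08 ± 0.32), Dnajc21 (-0.05 ± 0.20) and Dnajc7 (-0.14 ± 0.10) had overlapping groups and did not pass. Dnaja2 (-0.26 ± 0.11, adjusted p = 0.0859) and Dnajb5 (-0.46 ± 0.20, adjusted p = 0.0964) were below all NT libraries in all 4 DEX libraries, without passing. Without DEX mouse 4 alone 7 of the 63 members were called, among them Hspa5, Hsp90b1, Dnajc3, Dnajb11, Hspa12b and Dnajc16. Not called were Hspb1 (adjusted p = 0.221), Hsp90aa1 (adjusted p = 0.0842), Hspa9 (adjusted p = 0.0796) and Dnaja3 (adjusted p = 0.0517). The share of all genes called in that fit is not given here, so the 7 cannot be set against it. Without that mouse and the 3 libraries 10 rose and 17 fell, against 18.8% and 17.3% of all genes.

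Markers of other cells moved with dexamethasone in the soleus, and so did immediate early genes. That list was drawn up as a mark of dissection and stress, not of a cell type, and what moved its genes here was not tested. Summed adipocyte markers were 9.63 to 97.9 CPM in NT and 133 to 531 CPM in DEX libraries, with 6 of 6 genes called higher and none at 0. Schwann cell markers were at 59.2 to 124 and 54.7 to 562 CPM (6 of 7 genes higher), immediate early genes at 220 to 354 and 291 to 744 CPM (7 of 12 higher), endothelial markers at 252 to 339 and 327 to 428 CPM (2 of 6 higher), and macrophage markers at 36.0 to 83.7 and 44.8 to 354 CPM (none of 8 tested called). Slow-fibre markers were at 25270 to 30220 and 17750 to 32070 CPM. DEX mouse 4 held the highest macrophage and immediate early sums, and the lowest slow-fibre sum of its group. In the gastrocnemius adipocyte markers went from 35.4 to 85.1 CPM in NT to 136 to 176 CPM in DEX libraries (5 of 6 higher), and fibroblast markers were at 773 to 1077 and 409 to 540 CPM (1 of 6 lower). Tendon markers there were at 176 to 477 and 104 to 234 CPM (4 of 6 lower, median -1.12), and endothelial markers at 243 to 270 and 200 to 220 CPM without overlap (1 of 6 lower). Immediate early genes were at 126 to 202 and 177 to 307 CPM (1 of 12 higher). No gene of these lists was at 0 in a whole group. Leaving out the 3 libraries, 4 of 6 endothelial, 5 of 6 fibroblast and 5 of 6 tendon genes were called lower in the gastrocnemius. The part of these cells, and of dissection or stress, in the chaperone changes was not tested.

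**Figure D2:**
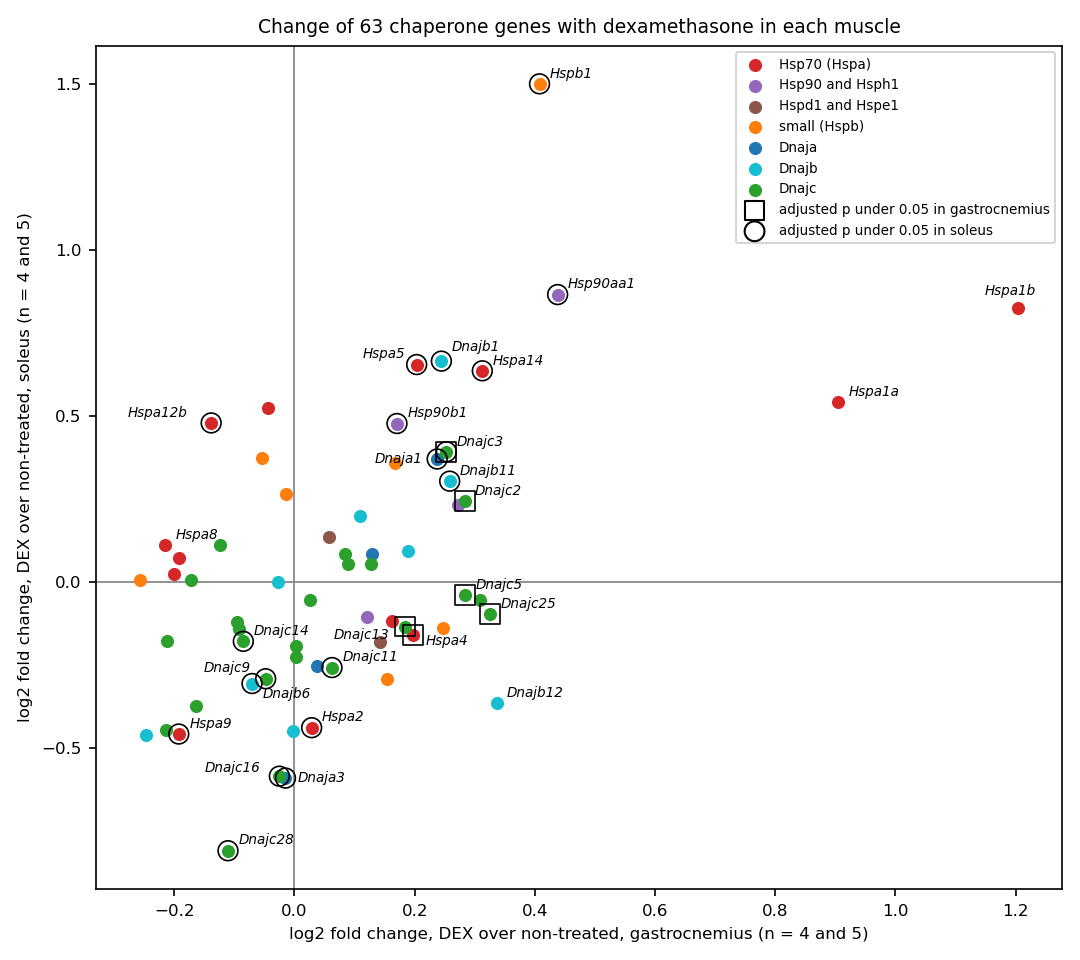
Each point is 1 member, with its log2 fold change of DEX (n = 4) over NT (n = 5) in the gastrocnemius on the horizontal and in the soleus on the vertical axis; squares and rings mark adjusted p under 0.05 in each muscle. Dnajc3 alone carries both marks, and Hspb1 stands highest on the soleus axis, at 1.50, with that value resting on 1 library.

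The response to dexamethasone itself differed between the muscles for 7 members, all with a lower value in the soleus. The interaction was called lower for 7 and higher for none of 63, where 4.55% of the 15327 genes tested were lower and 3.81% higher. It was largest for Dnajb12 (-0.72 ± 0.20, adjusted p = 0.0158). Dnajb12 was at 77.4, 75.1, 71.9, 74.1 and 81.2 CPM in NT and at 95.2, 99.5, 102 and 87.3 CPM in DEX libraries of the gastrocnemius, and at 45.0, 43.5, 42.1, 49.9 and 43.5 CPM and 39.5, 34.0, 31.6 and 33.9 CPM in the soleus. It was thus higher in every DEX library of the former and lower in every DEX library of the latter. The others were Dnajc16 (-0.58 ± 0.12, adjusted p = 0.00179), Dnajc25 (-0.44 ± 0.08, adjusted p = 0.000467), Hspa4 (-0.38 ± 0.11, adjusted p = 0.0266), Dnajc5 (-0.34 ± 0.08, adjusted p = 0.0029), Dnajc11 (-0.34 ± 0.10, adjusted p = 0.0248) and Dnajc13 (-0.34 ± 0.08, adjusted p = 0.00751). Each kept its call in at least 17 of 18 omissions of 1 library. The labels do not say whether the same mouse number in both muscles is the same animal. If it is, the libraries of the muscles are not independent, and a fit with the mouse as a replicate block left 5 of the 7 called (4.78% of all genes in either direction), without Hspa4 (adjusted p = 0.0503) and Dnajc11 (adjusted p = 0.0614). With those 3 libraries left out 22 members were lower and 3 higher, against 19% and 14.6%. The differences of Hspb1 (1.07 ± 0.45, adjusted p = 0.125) and Hspa5 (0.43 ± 0.20, adjusted p = 0.167), both chosen after their values were seen, did not pass with all libraries.

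**Figure D3:**
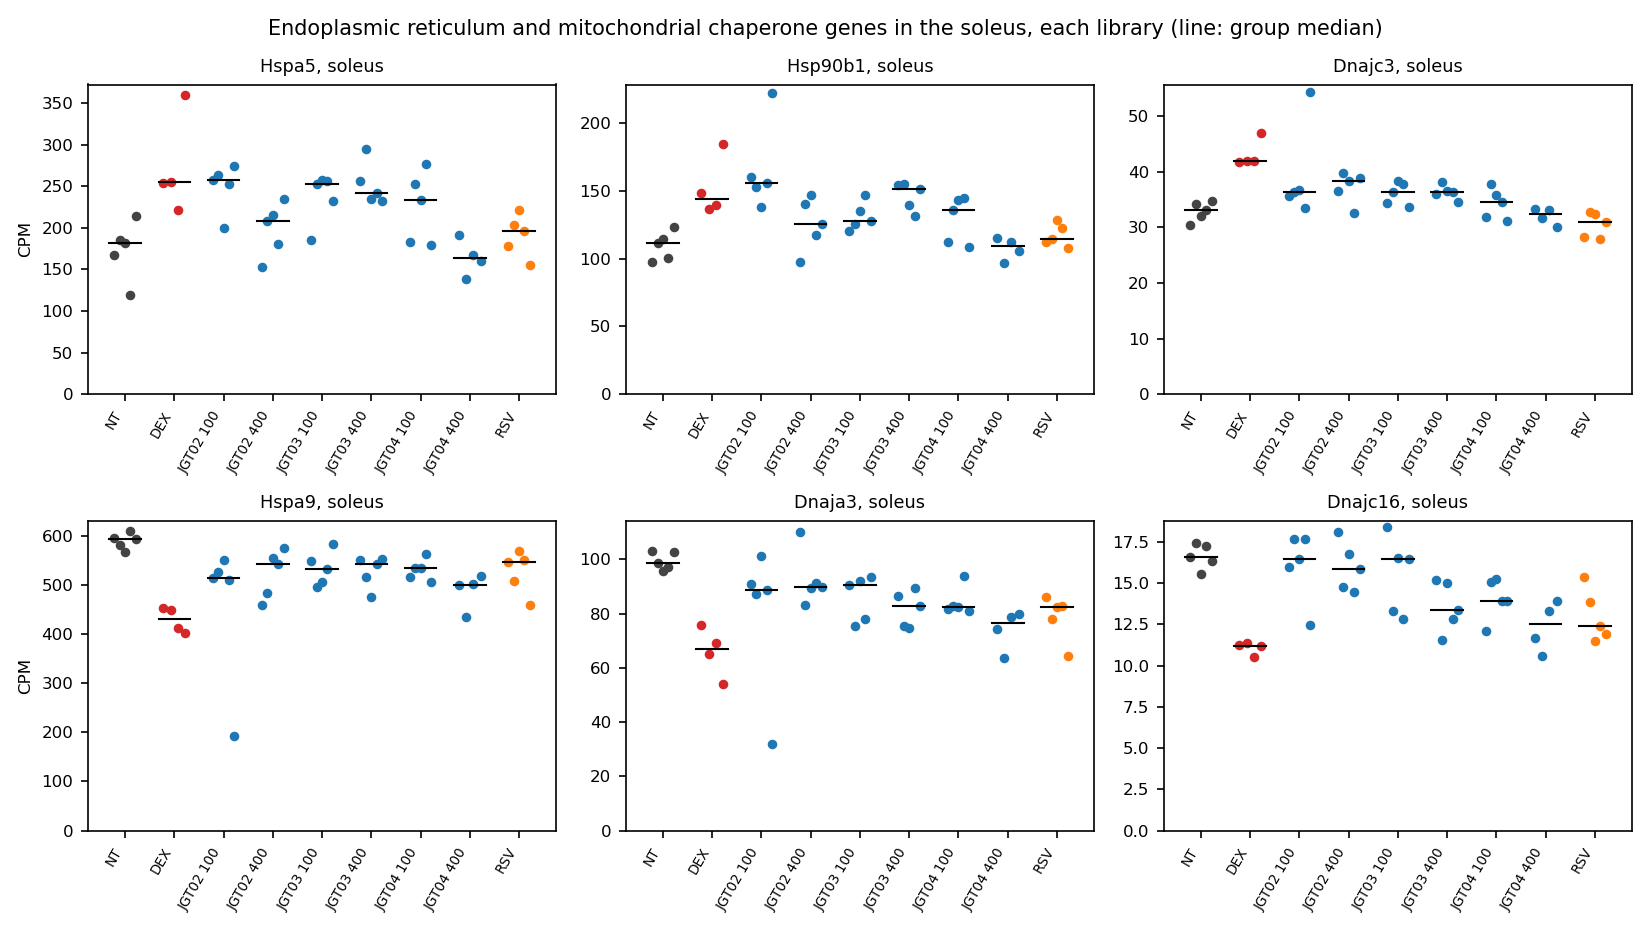
Points are soleus libraries by group, in CPM on linear axes from 0, with the group median as a line. Hspa5, Hsp90b1 and Dnajc3 (top) are higher and Hspa9, Dnaja3 and Dnajc16 (bottom) lower in all 4 DEX than in all 5 NT libraries; the low point of JGT02 100 in the lower panels is mouse 5.

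Treatments were compared with the DEX group to ask whether an extract or resveratrol altered what dexamethasone did. All 7 treatments share the same 4 DEX libraries of a muscle, so a DEX library that is high or low moves all 7 alike. The listed order of the samples falls into 3 runs, between which levels of some genes stepped in an earlier analysis of these data, and no label explains them. NT and DEX of a muscle lie in the same run. Soleus JGT03, JGT04 and RSV, 2 of 5 soleus JGT02 400 mg/kg libraries, and gastrocnemius JGT04 400 mg/kg, RSV and 2 of 5 JGT04 100 mg/kg libraries lie in another run than their DEX group. In each muscle a single group spans 2 runs, gastrocnemius JGT04 100 mg/kg and soleus JGT02 400 mg/kg. Each has 3 libraries in the run of its DEX group and 2 in the next. A term for the run is set by that group alone, so these fits cannot tell treatment and run apart. The term left no member called in any of those treatment comparisons but soleus JGT02 400 mg/kg. That loss cannot be read as a result about treatment or run. The term also left few genes called at all, 0.621% for gastrocnemius JGT04 at 100 mg/kg, 0.0069% for gastrocnemius RSV, 0.027% for soleus JGT04 at 100 mg/kg, 0.0203% for soleus RSV and 0% in the other 4. For soleus JGT02 at 400 mg/kg 10 members were called, against 14.2%. With the term that comparison rests on the group's 3 libraries in the DEX run, and the library with fast-fibre markers is among them. That library was kept in this fit, so the 10 calls cannot be read as an effect of treatment alone.

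In the gastrocnemius few members passed in any treatment while all 86 libraries were in the fit. JGT02 at 100 mg/kg gave 3 members called, where 10.2% of all genes were, JGT02 at 400 mg/kg none (0.808%), JGT03 at 100 mg/kg none (0.0207%), JGT03 at 400 mg/kg 1 (0.677%), JGT04 at 100 mg/kg 1 (1.38%), JGT04 at 400 mg/kg 4 (2.04%) and RSV 1 (1.37%). The 6 extract groups together gave 2 (1.26%). In the groups with no call, 8 members (JGT02 at 400 mg/kg) and 6 members (JGT03 at 100 mg/kg) had an unadjusted p under 0.05, and DESeq2 called none. The shares of all genes with such a p are not given here, so the 8 and the 6 cannot be set against them. When the 3 libraries were left out the counts were larger in all treatments but JGT02 at 100 mg/kg, and so were the shares of all genes. JGT02 then gave 1 (0.963%) and 3 (5.7%) at 100 and 400 mg/kg, JGT03 2 (1.17%) and 9 (6.49%), JGT04 14 (9.36%) and 13 (11.3%), RSV 15 (9.47%) and the extracts together 15 (9.57%). Of these members 1, 3, 2, 7, 10, 9, 12 and 12 were lower. Dnajb14 was lower and called in all 7 treatments, Hspa8 in 5 and Hsp90aa1 in 5.

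Hspa8 was the member called most often in the gastrocnemius. Against 824, 838, 918 and 1073 CPM in the DEX libraries, it was at 801, 691, 722, 700 and 612 CPM with JGT04 at 100 mg/kg, at 691, 620, 570 and 740 CPM with JGT04 at 400 mg/kg, and at 655, 695, 694, 716 and 748 CPM with RSV. None of these libraries reached the lowest DEX value. The changes were -0.37 ± 0.10 (adjusted p = 0.0447), -0.48 ± 0.11 (adjusted p = 0.00908) and -0.38 ± 0.10 (adjusted p = 0.0406), and that of the extracts together -0.30 ± 0.08 (adjusted p = 0.0419). The difference was below 0 in 7 of 7 treatments, and 31 of 34 treated libraries lay below all DEX libraries. Treated mice were thus farther from the NT value of 1031 to 1098 CPM than DEX mice. Leaving out DEX mice 3 and 4 and the 3 libraries, JGT04 at 400 mg/kg alone kept the call (adjusted p = 0.0159). Hspa8 shares 43.5% of its words with other genes, most with Gm15459.

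Dnajb14, a J-domain protein of the endoplasmic reticulum membrane, was below 0 in 7 of 7 treatments and below all DEX libraries in 33 of 34 treated libraries. It was called with JGT04 at 400 mg/kg (-0.28 ± 0.07, adjusted p = 0.0318) and in the extracts together (-0.20 ± 0.05, adjusted p = 0.0451). Hspd1 (-0.21 ± 0.06, adjusted p = 0.0342) fell and Dnajb6 (0.23 ± 0.06, adjusted p = 0.0376) rose with JGT04 at 400 mg/kg. Hsp90ab1 fell with JGT03 at 400 mg/kg (-0.22 ± 0.05, adjusted p = 0.0485). Hspa12b (-0.38 ± 0.10, adjusted p = 0.0217), Dnajb4 (-0.24 ± 0.07, adjusted p = 0.0289) and Dnajc11 (-0.19 ± 0.06, adjusted p = 0.0364) fell with JGT02 at 100 mg/kg, and all 3 lost the call without the 3 libraries (adjusted p = 0.129, 0.184 and 0.106). Mouse 1 of that group is one of the 3. Summed endothelial markers were at 157 to 195 CPM in that group and 200 to 220 CPM in DEX libraries, and the part of these cells in the value of Hspa12b was not tested.

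In the soleus more members passed, and the balance of higher and lower calls differed between treatments and with the 3 libraries. RSV gave 3 higher and 13 lower (5.11% and 7.56% of all genes), JGT02 at 400 mg/kg 9 and 7 (9.2% and 7.89%), JGT04 at 400 mg/kg 1 and 9 (1.57% and 3.01%), and JGT04 at 100 mg/kg 2 and 5 (3.36% and 5.59%). JGT02 at 100 mg/kg gave 3 and 2 (4.8% and 4.02%), JGT03 at 100 mg/kg 1 and 2 (3.42% and 5.07%) and JGT03 at 400 mg/kg 0 and 3 (0.979% and 2.08%). The extracts together gave 5 higher and 7 lower (5.27% and 8.64%). Without the 3 libraries JGT02 at 100 mg/kg gave 21 higher and 7 lower (16.2% and 19.6%), JGT02 at 400 mg/kg 14 and 13 (13.6% and 16.7%) and the extracts together 16 and 19 (16.4% and 23.3%). JGT03 gave 13 and 13 (12.6% and 17.4%) at 100 mg/kg and 11 and 9 (11.4% and 16.1%) at 400 mg/kg, JGT04 13 and 17 (13.2% and 18%) at 100 mg/kg and 7 and 17 (9.01% and 13.2%) at 400 mg/kg, and RSV 11 and 16 (16.3% and 20.4%).

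Markers of other cells, and the immediate early genes, listed as a mark of dissection and stress, moved with these calls. Against DEX, 4 of 6 endothelial, 6 of 7 Schwann cell and 7 of 12 immediate early genes were lower in the soleus extracts together (medians -0.53, -1.18 and -0.87), and 3 of 6, 2 of 7 and 6 of 12 with RSV (endothelial median -0.56, immediate early median -1.05). Summed endothelial markers were at 327 to 428 CPM in soleus DEX libraries and had group medians of 248 to 307 CPM in the 7 treatments. Schwann cell sums had a median of 312 CPM in DEX and of 69.8 to 99.7 CPM in the treatments, and immediate early sums of 385 and of 237 to 312 CPM. In the gastrocnemius 1 of 6 endothelial genes was lower in the extracts and 3 of 6 with RSV (medians -0.26 and -0.37). None of these genes was at 0 in a whole group, and their part in the chaperone values was not tested.

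Among the lower genes were those of the inducible cytosolic set. All 7 of its members, Hspa1a, Hspa1b, Hspb1, Hsp90aa1, Dnajb1, Dnaja1 and Hsph1, had values below 0 in each of the 7 soleus treatments. Only part of them passed in each. The set was drawn up after the values were seen, and the treatments share their DEX libraries, so the 7 signs are not independent. Members outside the set were also below 0 in all 7, among them Hspa8, Hspa5, Dnajc1, Dnajc2, Dnajb14 and Hspa14. Hsp90aa1 was at 93.1 to 260 CPM in DEX libraries, and its 34 treated libraries had a lowest value of 44.8, a median of 72.7 and a highest of 164 CPM. Of these, 32 lay below all DEX libraries. Its changes ran from -0.59 to -1.24 and passed in 6 of 7 treatments, with adjusted p = 0.000163 for RSV and adjusted p = 0.0622 for JGT02 at 100 mg/kg. Without DEX mouse 4 and the 3 libraries RSV still gave -0.82 (adjusted p = 3.51e-06).

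Hspb1 was called in 7 of 7 soleus treatments, at -1.22 to -1.77. Its 34 treated libraries lay between 125 and 520 CPM, with a median of 295 CPM inside the NT range of 195 to 360 CPM, and 12 of them were below the lowest DEX library. Leaving out DEX mouse 4 and the 3 libraries ended the call in each treatment, with adjusted p from 0.0526 (JGT02 at 400 mg/kg) to 0.579 (JGT02 at 100 mg/kg). Hspa1b was called in 4 treatments, among them RSV, where it was at 19.4, 12.9, 10.2, 9.32 and 10.9 CPM against 58.5, 22.1, 44.4 and 63.4 CPM in DEX libraries (-1.91 ± 0.42, adjusted p = 0.00262). All RSV libraries were below all DEX libraries, and without DEX mouse 4 and the 3 libraries the adjusted p was 0.000194. Dnaja1 was called in 4 treatments, at -0.48 to -0.57. Dnajb1 was called in 3, and without DEX mouse 4 and the 3 libraries that of JGT03 at 400 mg/kg alone remained (adjusted p = 0.0416). Hsph1 was called with JGT04 at 400 mg/kg and RSV (-0.49 ± 0.13 and -0.44 ± 0.12), and neither call held without DEX mouse 4 and the 3 libraries (adjusted p = 0.0559 and 0.0627).

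**Figure D4:**
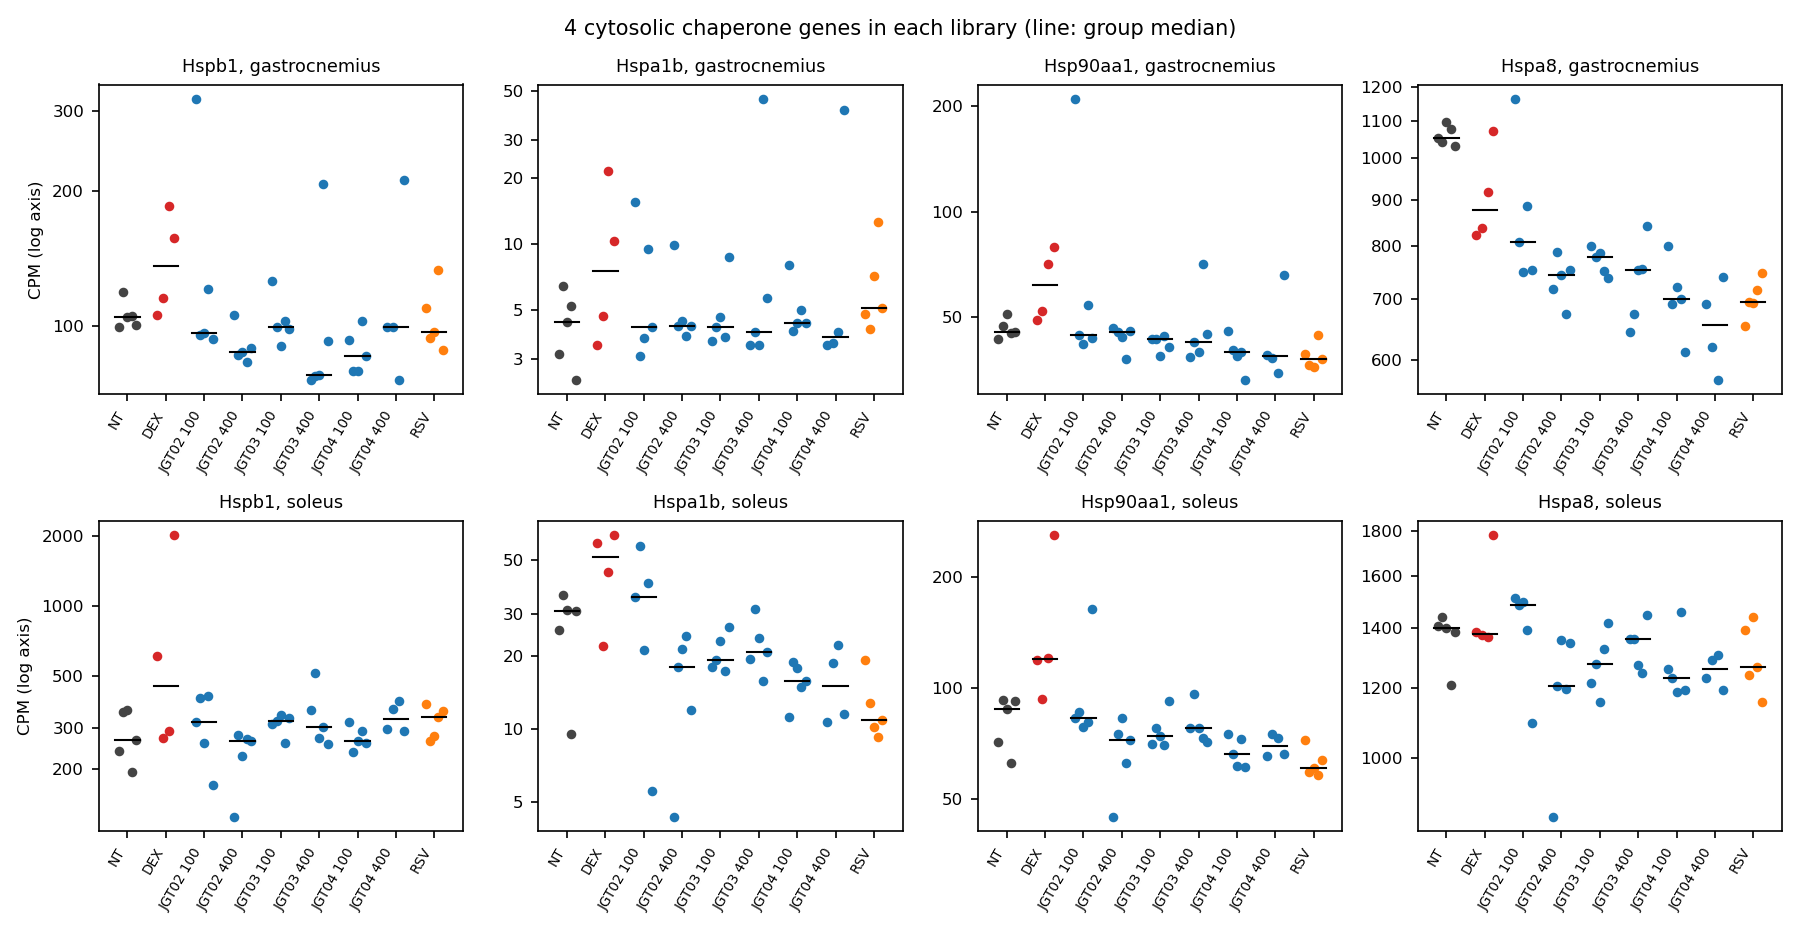
Points are libraries by group in CPM on log axes, gastrocnemius above and soleus below, with group medians as lines. Hspb1 in soleus DEX reaches 2022 CPM in 1 of 4 libraries, Hsp90aa1 in soleus is lower in most treated libraries than in all DEX libraries, and Hspa8 in gastrocnemius is below all DEX libraries in 31 of 34.

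Of the 11 endoplasmic reticulum members 5 were lower than in DEX with RSV, 4 with JGT04 at 400 mg/kg, 1 with JGT04 at 100 mg/kg, 1 with JGT02 at 400 mg/kg and none in the other 3 treatments. Higher were 2 with JGT02 at each dose, 1 with JGT03 at 100 mg/kg and 1 with JGT04 at 100 mg/kg. In the fit lacking the 3 libraries the lower ones were 6, 7, 5 and 4, and 2 with JGT02 at 100 mg/kg, 4 with JGT03 at 100 mg/kg and 3 with JGT03 at 400 mg/kg. In that fit 2 were higher with JGT02 and JGT03 at each dose and with JGT04 at 100 mg/kg, and none with JGT04 at 400 mg/kg or RSV. Shares of all genes in each direction stand with the soleus counts above. Dnajc3 was at 27.9 to 32.8 CPM with RSV and at 33.4, 31.7, 33.1 and 30.1 CPM with JGT04 at 400 mg/kg, against 41.8 to 46.9 CPM in DEX libraries. The groups were apart (-0.50 ± 0.09, adjusted p = 0.00041, and -0.43 ± 0.10, adjusted p = 0.00728), and JGT04 at 100 mg/kg was also called (-0.33 ± 0.09, adjusted p = 0.0167). Hspa5 was called with JGT04 at 400 mg/kg (-0.73 ± 0.16, adjusted p = 0.00728), RSV (-0.51 ± 0.15, adjusted p = 0.0237) and JGT02 at 400 mg/kg (-0.46 ± 0.15, adjusted p = 0.034). Its JGT04 400 mg/kg libraries, at 192, 138, 168 and 161 CPM, lay within the NT range. Without DEX mouse 4 and the 3 libraries that call held (adjusted p = 0.0153), and those of RSV and JGT02 did not (adjusted p = 0.0699 and 0.302).

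Hsp90b1 was called with JGT04 at 400 mg/kg (-0.50 ± 0.12, adjusted p = 0.015) and RSV (-0.38 ± 0.12, adjusted p = 0.0299). Hspa13, a microsomal Hsp70 relative, was called in the same treatments (-0.44 ± 0.13 and -0.49 ± 0.13). With RSV Dnajb14 (-0.41 ± 0.12, adjusted p = 0.0278) and Hspb8 (-0.45 ± 0.15, adjusted p = 0.04, and 0.446 without DEX mouse 4 and the 3 libraries) were lower too. Hspa12b was lower and called with JGT02 at both doses (-0.92 ± 0.18 and -0.78 ± 0.18, adjusted p = 0.00137 and 0.00283) and with RSV (-0.52 ± 0.17, adjusted p = 0.042). Summed endothelial markers were at 149 to 277 and 201 to 309 CPM with JGT02 at 100 and 400 mg/kg and at 220 to 336 CPM with RSV, where DEX libraries had 327 to 428 CPM.

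Among the members called higher than in DEX were Dnajc16, Dnajb6, Dnajc9, Hspa2, Dnaja3 and Dnajc28, which were lower in DEX than in NT, and both comparisons use the same 4 DEX libraries. Dnajc16 was called with JGT02 at 100 and 400 mg/kg (0.53 ± 0.11 and 0.53 ± 0.11), JGT03 at 100 mg/kg (0.49 ± 0.11) and JGT04 at 100 mg/kg (0.34 ± 0.11), and 33 of 34 treated libraries lay above all DEX libraries. Hspa9 lay above all DEX libraries in 32 of 34, at a median of 522 CPM, and still below all NT libraries in 35 of the 38 libraries of mice given dexamethasone. It passed in no treatment with all libraries and in 7 of 7 without the 3 (adjusted p = 0.00059 to 0.0449). Dnajc9 passed in 4 treatments (0.32 to 0.41), and in JGT02 at 400 mg/kg and JGT04 at 100 mg/kg the call was lost without DEX mouse 4 and the 3 libraries (adjusted p = 0.0799 and 0.0519). Further calls were those of Dnajb6 with JGT02 at 400 mg/kg and RSV (0.33 ± 0.09 and 0.30 ± 0.09) and Dnajc30, a mitochondrial J-domain protein, with RSV (0.40 ± 0.13, adjusted p = 0.0461). Dnajb12 passed with JGT02 at 100 and 400 mg/kg (0.46 ± 0.14 and 0.68 ± 0.15) and Hspa2 with JGT02 at 100 mg/kg (0.47 ± 0.14).

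The further calls of JGT02 at 400 mg/kg were Dnaja2 (0.40 ± 0.11, adjusted p = 0.0113), Dnaja3 (0.49 ± 0.16, adjusted p = 0.0348), Dnajc12 (0.72 ± 0.19, adjusted p = 0.00984), Dnajc28 (0.75 ± 0.25, adjusted p = 0.0371) and Dnajc18 (0.21 ± 0.07, adjusted p = 0.0411). Mouse 1 of that group, whose markers are those of a fast muscle, is highest in Dnaja2, Dnajb12, Dnajc12, Dnaja3 and Dnajc28. When the 3 libraries were left out Dnajc18 lost its call (adjusted p = 0.168) and the other 4 kept theirs.

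**Figure D5:**
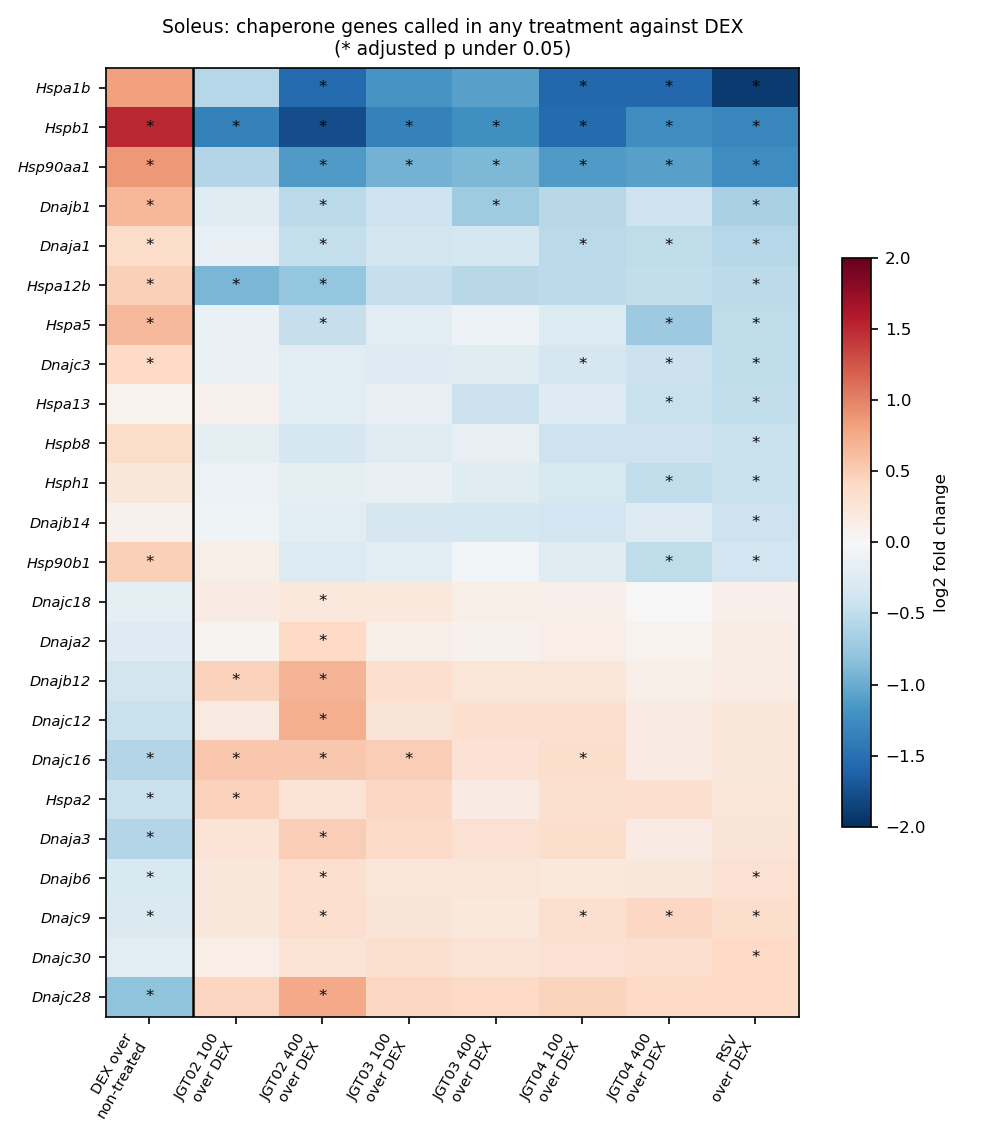
Rows are the 24 members called in any soleus treatment, columns are DEX over NT and then each treatment over DEX, colour is the log2 fold change, and a star marks adjusted p under 0.05. Rows such as Hspb1 and Hsp90aa1 are below 0 and Dnajc16 is above 0 in all 7 treatments; the first column and the other 7 share the 4 DEX libraries, so their opposite colours are in part built in.

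Dose made no difference that passed the test. Over the 3 extracts 400 against 100 mg/kg gave no member called in either muscle, where 0.2% of gastrocnemius and 0% of soleus genes were called. An unadjusted p under 0.05 was reached by 8 members in each muscle, and DESeq2 called 1 in the gastrocnemius and none in the soleus. The shares of all genes with such a p or called by DESeq2 are not given here, so these counts cannot be set against them. In the soleus the smallest p was that of Hspa13 (-0.26 ± 0.07, adjusted p = 0.296). The test over all 9 groups, which asks whether any group differs, called 15 members in the gastrocnemius (27% of all genes) and 22 in the soleus (41.4%). After removal of the 3 libraries the doses gave 1 member in the gastrocnemius, Dnajc1 (1.68%), and none in the soleus (0%), and the 9 groups 35 (42.7%) and 44 (61.2%).

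High values of the inducible genes appeared in single gastrocnemius libraries of several groups. Hspa1b was at 2.40 to 6.45 CPM in NT libraries, at 21.6 and 10.3 CPM in DEX mice 3 and 4, at 46.1 CPM in JGT03 400 mg/kg mouse 4 and at 40.8 CPM in JGT04 400 mg/kg mouse 4. The same 2 treated libraries had 207 and 211 CPM of Hspb1, where NT libraries had 99.9 to 119 CPM. Their regenerating-fibre sums were 39.4 and 42.0 CPM and their macrophage sums 71.3 and 51.6 CPM, close to or below the NT ranges of 26.5 to 40.4 and 72.7 to 95.7 CPM. In JGT02 100 mg/kg mouse 1, where both sums were high, 10 members stood at least 2-fold above the group's median, among them Hspb1 at 320 CPM and Hsp90aa1 at 210 CPM, and 11 stood at least 2-fold below, among them Hspb6 at 290 CPM. In soleus JGT02 100 mg/kg mouse 5 none stood above and 24 below, with Hspb6 at 91.5 CPM where the other 4 libraries had 3033 to 3540 CPM.

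Letters of the heat shock element were looked for in the same promoter windows, since heat shock factors bind it. With 3 units (GAANNTTCNNGAA or TTCNNGAANNTTC) it was found in 4 of 51 members (7.84%) and in 0.662% of all genes, and with 2 units (GAANNTTC or TTCNNGAA, which every match of 3 units also holds) in 15 members (29.4%) and in 4587 of the 27025 genes. The 4 members were Dnajb6, Hspd1, Hspe1 and Hsph1. Of them Hspd1 and Hspe1 read the same stretch from opposite strands, and Dnajb6 fell in the soleus with dexamethasone. Hspb1, Hspa1a and Hspa1b carried 2-unit matches. The stretches of Hspb1 and Hspa1b are shown for genes that stood out in single libraries, and those of Dnajb6 and Hspd1 for the 3-unit form, again with 20 bases on either side and matches in capitals. They lie at chr5:135887782-135887849 (plus strand), chr17:34959315-34959362 (minus strand), chr5:29735832-29735884 (plus strand) and chr1:55088039-55088096 (minus strand).
Hspb1: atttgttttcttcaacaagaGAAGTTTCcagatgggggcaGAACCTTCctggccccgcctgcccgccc
Hspa1b: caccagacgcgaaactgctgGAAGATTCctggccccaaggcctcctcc
Dnajb6: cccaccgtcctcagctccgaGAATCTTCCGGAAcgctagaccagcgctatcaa
Hspd1: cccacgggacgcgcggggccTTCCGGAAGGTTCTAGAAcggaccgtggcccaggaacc
The stretch of Hspa1a has the same letters as that of Hspa1b. No window was at hand for Hsp90aa1, Hsp90ab1, Hspa8 and Hspa9, among 12 members.

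Other chaperone genes, from lists of regulators and partners, were set beside the members. In the gastrocnemius 1 of 77 tested rose with dexamethasone, Bag5 (0.21 ± 0.06, adjusted p = 0.0227), a nucleotide exchange factor, and none fell, where 4.31% and 4.07% of all genes rose and fell. In the soleus 8 rose and 10 fell, beside 11.3% and 9.47% of all genes. With the 3 libraries removed, 15 rose and 5 fell in the gastrocnemius (all genes 13.2% and 13.2%) and 16 rose and 20 fell in the soleus (24% and 19.2%). Of 14 endoplasmic reticulum folding genes 6 rose and 1 fell, with a median of 0.57, among them Sdf2l1 (1.28, adjusted p = 0.00541), Manf (1.02, adjusted p = 0.00132), Creld2 (0.92, adjusted p = 0.00109), Xbp1 (0.74, adjusted p = 0.000359) and the lectin chaperone Calr (0.52, adjusted p = 0.00585). Atf6, a sensor of that organelle's stress, fell (-0.36, adjusted p = 0.00409). Of 23 Hsp90 co-chaperones 1 rose and 5 fell, the phosphatase Ppp5c (-0.47, adjusted p = 0.00193) and the import receptor Tomm70a (-0.32, adjusted p = 0.000848) among them. Of 6 mitochondrial quality genes 2 fell, one of them Clpx (-0.76, adjusted p = 0.00204). Of 14 Hsp70 exchange factors and regulators 1 rose and 2 fell, with Bag2 at -0.73 (adjusted p = 3.64e-05). None of 8 chaperonin TRiC genes, 6 prefoldin genes and 5 heat shock factors and regulators passed in either muscle. In that fit none of the TRiC genes passed, 2 prefoldin genes rose in the gastrocnemius and 1 in the soleus, and of the factors and regulators 1 rose and 1 fell in the gastrocnemius and 2 fell in the soleus.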

How the data were processed

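RNA from 86 muscle samples was sequenced as strand-specific libraries, per the labels' protocols. The submitters' processing notes name RSEM 1.3.3, STAR 2.7.3a, Trim Galore 0.6.5 and FastQC 0.11.9, and the build GRCm38; the annotation, strand setting and filters are not given in the sources used here. The authors deposited RSEM expected counts per gene, of which 92.0% were whole, and these were rounded.

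Counts were tested with edgeR 4.0.16 (R 4.3.3; filterByExpr, TMM scaling, quasi-likelihood test, Benjamini-Hochberg adjustment over all genes, threshold 0.05). Each muscle was fitted over its 9 groups, and both muscles together for comparisons between them. CPM values are TMM-scaled, except for the limit of 1 CPM and the levels set against it, which use the deposited totals. Totals of 18.8 to 34.6 M (mega counts) limit precision for genes near 1 CPM; p-values measure the spread between mice. The samples form 9 groups, while the protocol text speaks of fewer. DESeq2 1.42.0 and other alternatives are compared in the closing section. The scripts were tested on simulated data. Gene positions and exon lengths came from GENCODE (GRCm38) and promoters from RefSeq (GRCm38.p6).

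The members and all lists were chosen with earlier results of these data known. For DEX against NT, the muscles and their interaction, the text names called members up to 12 per direction by fold change, and elsewhere up to 8 per direction by p, plus the 2 most abundant members of each family. Partner genes are named only for DEX against NT, up to 10 per muscle by p. Other genes, and the grouping by place in the cell, were chosen after their values were seen.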

Additional observations from a re-analysis of the deposited data

Results flagged for a closer look

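For 5 members in the gastrocnemius and 10 in the soleus, chosen after their values were seen, the libraries of each group were checked for a single value far from the rest, and 26 of 135 groups held one. Chance flags about 1 in 20 groups, but the number cannot be read against that, since some of these members were chosen for single high libraries and several vary together over the same ones. In the gastrocnemius, where 4 of the 5 members checked are inducible genes, mouse 4 of JGT03 400 mg/kg stood apart in Hspa1a (46.47 CPM), Hspa1b (46.1 CPM), Hspb1 (207.2 CPM) and Hsp90aa1 (70.86 CPM), and mouse 4 of JGT04 400 mg/kg in Hspa1a (38.19 CPM), Hspa1b (40.83 CPM) and Hsp90aa1 (66.02 CPM). Mouse 1 of JGT02 100 mg/kg stood apart in Hspb1 (320.0 CPM) and Hsp90aa1 (210.1 CPM). Smaller gaps were those of Hspa1a (10.1 CPM) and Hspa1b (8.069 CPM) in JGT04 100 mg/kg mouse 1, Hspa1b (9.896 CPM) and Hspb1 (105.8 CPM) in JGT02 400 mg/kg mouse 1, Hspa1b (8.738 CPM) in JGT03 100 mg/kg mouse 5 and Hspb1 (119.2 CPM) in NT mouse 2.

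In the soleus, mouse 5 of JGT02 100 mg/kg was high in Hsp90aa1 (163.8 CPM), Hsp90b1 (222.4 CPM) and Dnajc3 (54.38 CPM) and low in Hspa9 (192.4 CPM) and Dnaja3 (32.07 CPM). DEX mouse 4 was high in Hsp90aa1 (259.5 CPM) and Dnajc3 (46.9 CPM). Single values far from their group were also those of Hsp90aa1 in JGT03 400 mg/kg mouse 2 (96.45 CPM), Hspa1a in NT mouse 4 (22.39 CPM) and RSV mouse 1 (39.31 CPM), and Dnaja3 in JGT04 100 mg/kg mouse 4 (94.0 CPM).

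The dexamethasone response differed between the muscles, by a test of the difference itself, for Dnajb12 (soleus minus gastrocnemius -0.7219 on the log2 scale), Dnajc16 (-0.5801), Dnajc25 (-0.4413), Hspa4 (-0.3756), Dnajc5 (-0.3434), Dnajc11 (-0.3397) and Dnajc13 (-0.3377).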

How the results depend on the processing

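No member named in the text changed direction in a called comparison under any alternative run. The values below are counts of the 63 members called, and the cause was not tested. Shares of all genes are given for only some of these runs. Where they are not, a moved count cannot be told apart from a move of all genes. DESeq2 called 11 for the interaction, 1 for the gastrocnemius doses, 2, 4 and 4 for gastrocnemius JGT04 100 mg/kg, RSV and all extracts, and 6 and 11 for soleus JGT03 and JGT04 at 100 mg/kg. DESeq2 size factors gave 0 for gastrocnemius JGT03 400 mg/kg. Without the low-count filter, gastrocnemius JGT03 400 mg/kg, JGT04 100 mg/kg, RSV and all extracts gave 0, JGT04 400 mg/kg 1, and soleus JGT03 400 mg/kg 1. Fitted on only the groups compared, the interaction gave 21, gastrocnemius DEX against NT 15, its JGT02 at both doses 0 and 2, JGT03 400 mg/kg 2, JGT04 7 and 9, RSV 8 and all extracts 0, and soleus JGT02 0 and 2, JGT03 100 mg/kg 7 and JGT04 12 and 0.

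With a term for the run in the listed order, chosen after seeing the data, NT soleus against gastrocnemius gave 21, the test over 9 groups 9 (gastrocnemius) and 10 (soleus), soleus JGT02 400 mg/kg 10, and 0 in soleus JGT03 and JGT04 at both doses, RSV and all extracts and in gastrocnemius JGT03 400 mg/kg, JGT04 at both doses, RSV and all extracts. A single group of each muscle sets that term, so these counts cannot tell treatment or muscle from run.

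Without the 3 libraries, also chosen after seeing the data, the interaction gave 25. In the gastrocnemius DEX against NT gave 22, JGT02 1 and 3, JGT03 2 and 9, JGT04 14 and 13, RSV 15, all extracts 15, the doses 1 and the 9 groups 35. In the soleus these were 35, 28 and 27, 26 and 20, 30 and 24, 27 and 35, and 44 for the 9 groups. The shares of all genes rose as well, from 8.38% to 26.4% for gastrocnemius DEX against NT, from 1.26% to 9.57% for its extracts, from 20.8% to 43.2% for soleus DEX against NT and from 13.9% to 39.6% for its extracts; directions and shares for each treatment stand with the treatments above. Leaving out gastrocnemius DEX mice 3 and 4 as well gave 25 for the interaction, 16 for DEX against NT, 0 and 1 for JGT02, 1 and 2 for JGT03, 0 for JGT04 100 mg/kg, 5 for RSV, 1 for all extracts and 32 for the 9 groups. Leaving out soleus DEX mouse 4 as well gave 23 for the interaction, 28 for JGT02 100 mg/kg, 19 and 13 for JGT03, 14 for JGT04 100 mg/kg, 22 for all extracts and 43 for the 9 groups.

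With each library left out in turn, counts were 5 to 6 for gastrocnemius DEX against NT, 0 to 7 and 0 to 0 for JGT02, 0 to 0 and 0 to 1 for JGT03, 0 to 1 and 0 to 3 for JGT04, 0 to 1 for RSV, 0 to 15 for all extracts, 0 to 1 for the doses and 11 to 35 for the 9 groups, the last without JGT02 100 mg/kg mouse 1. In the soleus it gave 7 to 18, 3 to 24 and 6 to 18, 1 to 7 and 0 to 4, 2 to 10 and 1 to 11, 4 to 16, 4 to 32, 0 to 0 and 18 to 42. The soleus DEX against NT count was lowest without DEX mouse 4, and that of JGT02 100 mg/kg highest without its mouse 5. NT soleus against gastrocnemius gave 40 to 43 and the interaction 6 to 10.

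Mouse numbers recur in the groups, and a fit with the number as a replicate block gave 1 for gastrocnemius JGT02 100 mg/kg and 0 for JGT03 400 mg/kg, JGT04 100 mg/kg, RSV and all extracts. Same-numbered mice of a muscle did not deviate together at the median (r = 0.00219 in the gastrocnemius and 0.0153 in the soleus, over 165 pairs each). Pairs with other numbers had medians of -0.0007941 and 0.005836. No pairing by number showed, but a median near 0 cannot exclude one. Between the muscles, same-numbered libraries of a group had a median r of 0.0172 over 43 pairs; with the number taken as the animal the interaction gave 5, without Hspa4 and Dnajc11.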
